A study of Mus musculus with 27 samples.

Results

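The mouse H2 genes, the genes of the major histocompatibility complex, were followed in whole uterus of 3 strains of mice with and without estradiol. The members were taken by name: every gene whose name in the array files starts with H2-, plus Cd74, Ciita, B2m, Tap1, Tap2 and Tapbp, which serve the same 2 pathways of antigen presentation. The rule gave 42 genes on 64 probes, of 27670 named genes on 41174 probes. Of these, 33 genes cleared the background on each of the 3 arrays of some group and were tested, among 21866 genes tested in all. The 9 others (H2-M1, H2-M9, H2-M10.1, H2-M10.3, H2-M10.4, H2-M10.5, H2-M10.6, H2-M11 and H2-T3) did not reach that brightness in any group. Chromosome 17 holds 39 of the 42 genes, while B2m lies on chromosome 2, Ciita on chromosome 16 and Cd74 on chromosome 18. The gene the files call H2-Ke2 is now named Pfdn6, and Ciita appears there as C2ta.

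Uteri came from ovariectomised 8-week-old females: the F1 of C57BL/6 and C3H/HeJ mice (F1), C3H/HeJ (C3H) and C57BL/6 (B6). Each strain had 3 groups of 3 arrays: ethanol/saline vehicle, for which the labels give no time, and 2 h and 24 h after 17β-estradiol (E2) at 40.0 µg/kg, so that 27 arrays were used. All animals had lost their ovaries 1 to 2 weeks before the injection, the vehicle controls included. The labels speak of 3 animals per treatment group without saying which animal lies behind which array, so the spread behind the p-values is that between these samples and may be technical.

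Class I molecules consist of a heavy chain (H2-K1 and H2-D1 for the classical ones, the Q, T and M genes for the others) and the light chain B2m, and they present peptides made in the cytosol. The transporter subunits Tap1 and Tap2 carry these peptides into the endoplasmic reticulum, where tapasin (Tapbp) holds the empty class I molecule. Class II molecules pair an α and a β chain (H2-Aa with H2-Ab1, H2-Ea with H2-Eb1) on dendritic cells, B cells and macrophages; the invariant chain Cd74 guards their groove, H2-DM loads it, H2-DO restrains H2-DM, and CIITA switches the genes on. The H2 region is among the most polymorphic of the genome. B6 mice carry haplotype b and C3H mice haplotype k, F1 mice carry both, and haplotype b has a deletion in the promoter of H2-Ea, so that B6 makes no Eα chain.

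A probe is 60 bases long, and a base that differs between haplotypes under it can change its signal at equal RNA. The probes on which the comparison of strains turns are therefore printed first, 5′ to 3′ as the array files give them, with the position on mm7 where the files hold one. Capitals mark the bases at which both H2-Ab1 probes with the strongest strain difference disagree over the 31 bases that they share.
H2-Ab1, A_52_P570717: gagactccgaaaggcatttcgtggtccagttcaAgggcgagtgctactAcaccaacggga
H2-Ab1, A_51_P215242, chr17:32342603-32342662, plus strand: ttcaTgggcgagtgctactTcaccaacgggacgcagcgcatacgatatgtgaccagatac
H2-Ab1, A_51_P215237, chr17:32345268-32345327, plus strand: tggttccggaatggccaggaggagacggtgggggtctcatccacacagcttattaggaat
H2-Aa, A_51_P119760: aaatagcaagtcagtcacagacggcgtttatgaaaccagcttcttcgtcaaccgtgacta
H2-Aa, A_52_P343306, chr17:32362310-32362369, minus strand: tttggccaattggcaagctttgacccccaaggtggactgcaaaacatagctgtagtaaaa
H2-Ea, A_51_P222741, chr17:32421735-32421794, minus strand: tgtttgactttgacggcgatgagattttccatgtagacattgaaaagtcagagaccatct
H2-K1, A_52_P50496, chr17:32077678-32077737, minus strand: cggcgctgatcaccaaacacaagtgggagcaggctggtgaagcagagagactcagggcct
H2-K1, A_52_P474242, chr17:32077868-32078115, minus strand: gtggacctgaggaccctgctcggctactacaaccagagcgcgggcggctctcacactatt
Over the 31 shared bases of the H2-Ab1 probes A_51_P215242 and A_52_P570717, 29 are equal. The differences are T5A and T20A, giving the base of A_51_P215242, the position from its 5′ end and the base of A_52_P570717. The probes of this gene thus hold different letters at both positions. Class I genes are also close copies of each other: the H2-Q5 and H2-Q10 probes share 35 bases, all equal, and those of H2-Q7 and H2-T23 share 59 bases, of which 50 are equal, so the value of a class I gene is uncertain as to the copy it comes from.

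Levels below are on the log2 scale, each probe's processed signal being divided by the 75th percentile of its own array, so that 0 is the brightness of that percentile, and differences are log2 differences with the standard error (SE) of a limma fit over all 27 arrays. A gene was called when its Benjamini-Hochberg adjusted p over all tested genes was under 0.05. On these arrays the 75th percentile lay between 1210 and 1579 intensity units, 72.4% to 79.4% of probes were well above background, and replicates correlated at r = 0.988 to 0.996 across genes.

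One array set the members apart from the other genes. In B6 vehicle replicate 1, 32 of the 33 tested members lay above the mean of the other 2 B6 vehicle arrays, with a median of 1.18 log2 units and a range from −0.13 to 2.12, while the median over all genes was −0.02. Of the members, 24 differed by more than 1 log2 unit, against 5.12% of all genes. Interferon-induced genes averaged 1.65 on this array, against −0.27 on the lowest B6 vehicle array (log2 level relative to each gene's mean over all arrays). Markers of NK cells averaged 2.08, against 0.79 on the lowest B6 vehicle array, and those of T cells 1.24, against 0.04. On the highest B6 vehicle array, general leukocyte genes averaged 1.38, B cell markers 1.09, dendritic cell markers 0.97 and macrophage markers 0.89. What part this has in the members' values was not tested, and the main results that involve B6 vehicle samples are given with and without this array. The C3H E2 2 h replicate 1 array had high levels of general leukocyte genes (1.82) and B cell genes (0.95), with macrophage genes at 0.75. The heatmap of all 33 genes shows the B6 vehicle array as a single column high from the class II to the class I genes.

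**Figure D1:**
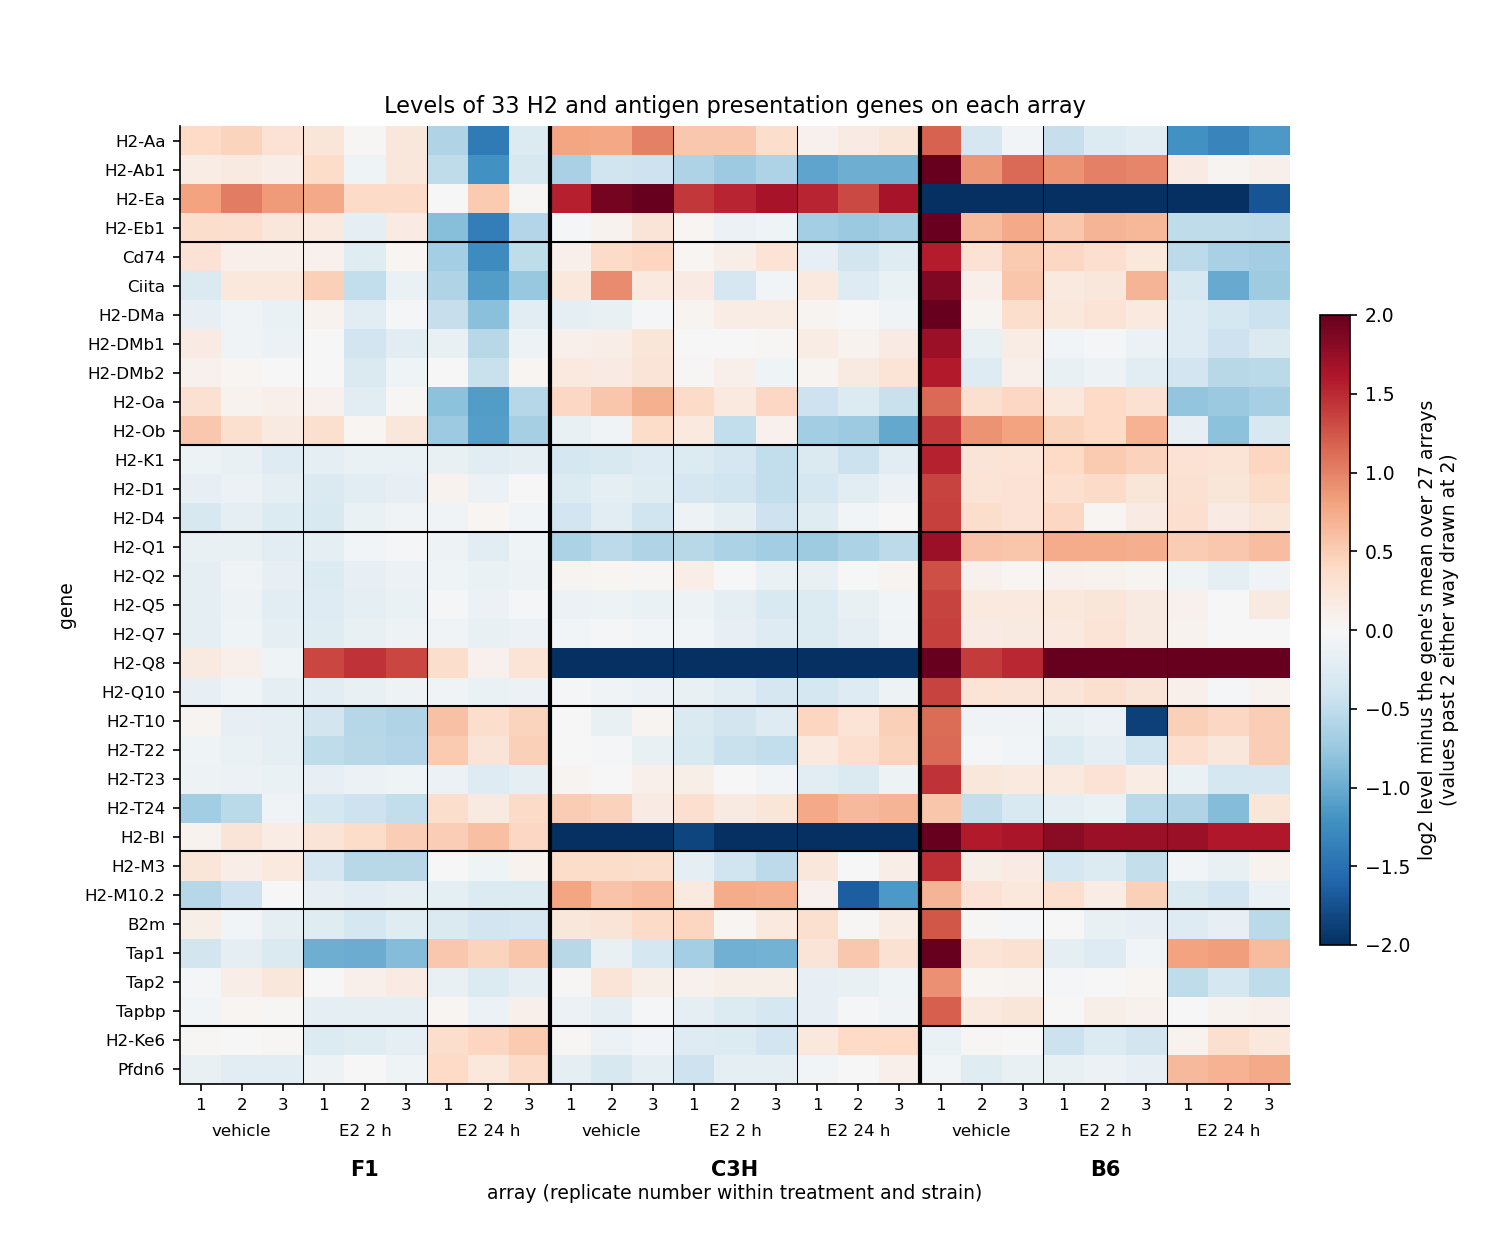
Log2 level of the 33 tested H2 and antigen presentation genes (rows) on 27 arrays (columns, F1, C3H and B6 from left to right), relative to each gene's mean over all arrays and limited to 2 log2 units in either direction. H2-Ea, H2-Q8 and H2-Bl split by strain, and B6 vehicle replicate 1 is high in most rows, with a median of 1.18 above the other 2 arrays of its group.

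The first question is which members differed between strains. As the mean over treatments, C3H minus B6 gave 3 members higher and 15 lower of 33, beside 40.6% called of all genes. With B6 vehicle replicate 1 left out, it gave 9 higher and 15 lower, beside 41.3%. In vehicle alone it gave 1 higher and 16 lower (24.3% of all genes called), or 3 and 14 without that array (23.6%). F1 minus B6 gave 2 higher and 19 lower over the mean of treatments, with 33.6% of all genes called, or 4 and 19 without the array (34.9%). No fit with slide as a term could be had for these means, so slide and strain cannot be told apart in them. The probes of several genes disagree on these differences, so the genes are described probe by probe where that matters.

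H2-Ea, the class II α chain that haplotype b does not express, separated the strains without overlap. Its level was −6.03, −5.82 and −5.99 in F1 vehicle uteri and −5.30, −4.92 and −4.82 in C3H vehicle uteri, against −9.03, −9.09 and −9.07 in B6 vehicle uteri. B6 was not well above background on any of its 9 arrays, so folds are bounds. C3H was at least 4.08-fold higher than B6 in vehicle, at least 3.00-fold at 2 h and at least 3.03-fold at 24 h. F1 was at least 2.14-fold higher than B6 in vehicle. On the linear scale F1 vehicle uteri held 51.9% of the C3H vehicle signal, and F1 uteri held 49.6% at 2 h and 40.7% at 24 h.

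H2-Ab1, the β chain of the A molecule, was lower in C3H than in B6 on all 4 of its probes, by amounts that ranged widely. In the fit that leaves out B6 vehicle replicate 1, C3H minus B6 was −1.40 on its brightest probe, A_52_P683598 (SE 0.09, limma adjusted p = 1.3e-10), −1.96 on A_51_P215237, −2.82 on A_51_P215242 and −8.00 on A_52_P570717. The −8.00 is a fitted value that rests on levels near the background, and bounds follow for it. On this last probe, vehicle levels were −1.21, −0.97 and −1.02 in F1 and −6.34, −7.41 and −9.05 in C3H, against 1.79, 0.19 and 0.60 in B6. C3H was not well above background there after E2, and it was at least 188.5-fold lower than B6 at 2 h and at least 97.7-fold lower at 24 h. The 4 probes thus gave the same direction and no common size.

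H2-Aa, the α chain of the A molecule, gave opposite directions on its 2 probes. The brighter probe, A_51_P119760, stood at 1.70, 1.74 and 1.59 in F1 vehicle uteri and 2.09, 2.07 and 2.31 in C3H, against 2.48, 0.97 and 1.25 in B6. C3H minus B6 over treatments was 0.93 (SE 0.16, limma adjusted p = 5.6e-05), and 1.08 without B6 vehicle replicate 1. The probe A_52_P343306 stood at 0.53, 0.56 and 0.45 in F1 and −2.06, −2.26 and −1.95 in C3H, against 3.07, 1.42 and 1.70 in B6, and C3H minus B6 on it was −3.66 without that array. Which strain has more H2-Aa RNA therefore depends on the probe.

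Among the other class II genes, H2-Eb1, the β chain of the E molecule, was lower in C3H (−0.63, SE 0.14, limma adjusted p = 0.00078), and by −0.49 without B6 vehicle replicate 1. The invariant chain gene Cd74 differed by −0.10 (adjusted p = 0.57), the transactivator gene Ciita by −0.07 and the H2-DM chain gene H2-DMa by −0.23 (adjusted p = 0.30), none of them called. Leaving out B6 vehicle replicate 1, these 3 stood at 0.03, 0.10 and −0.03 and were again not called.

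**Figure D2:**
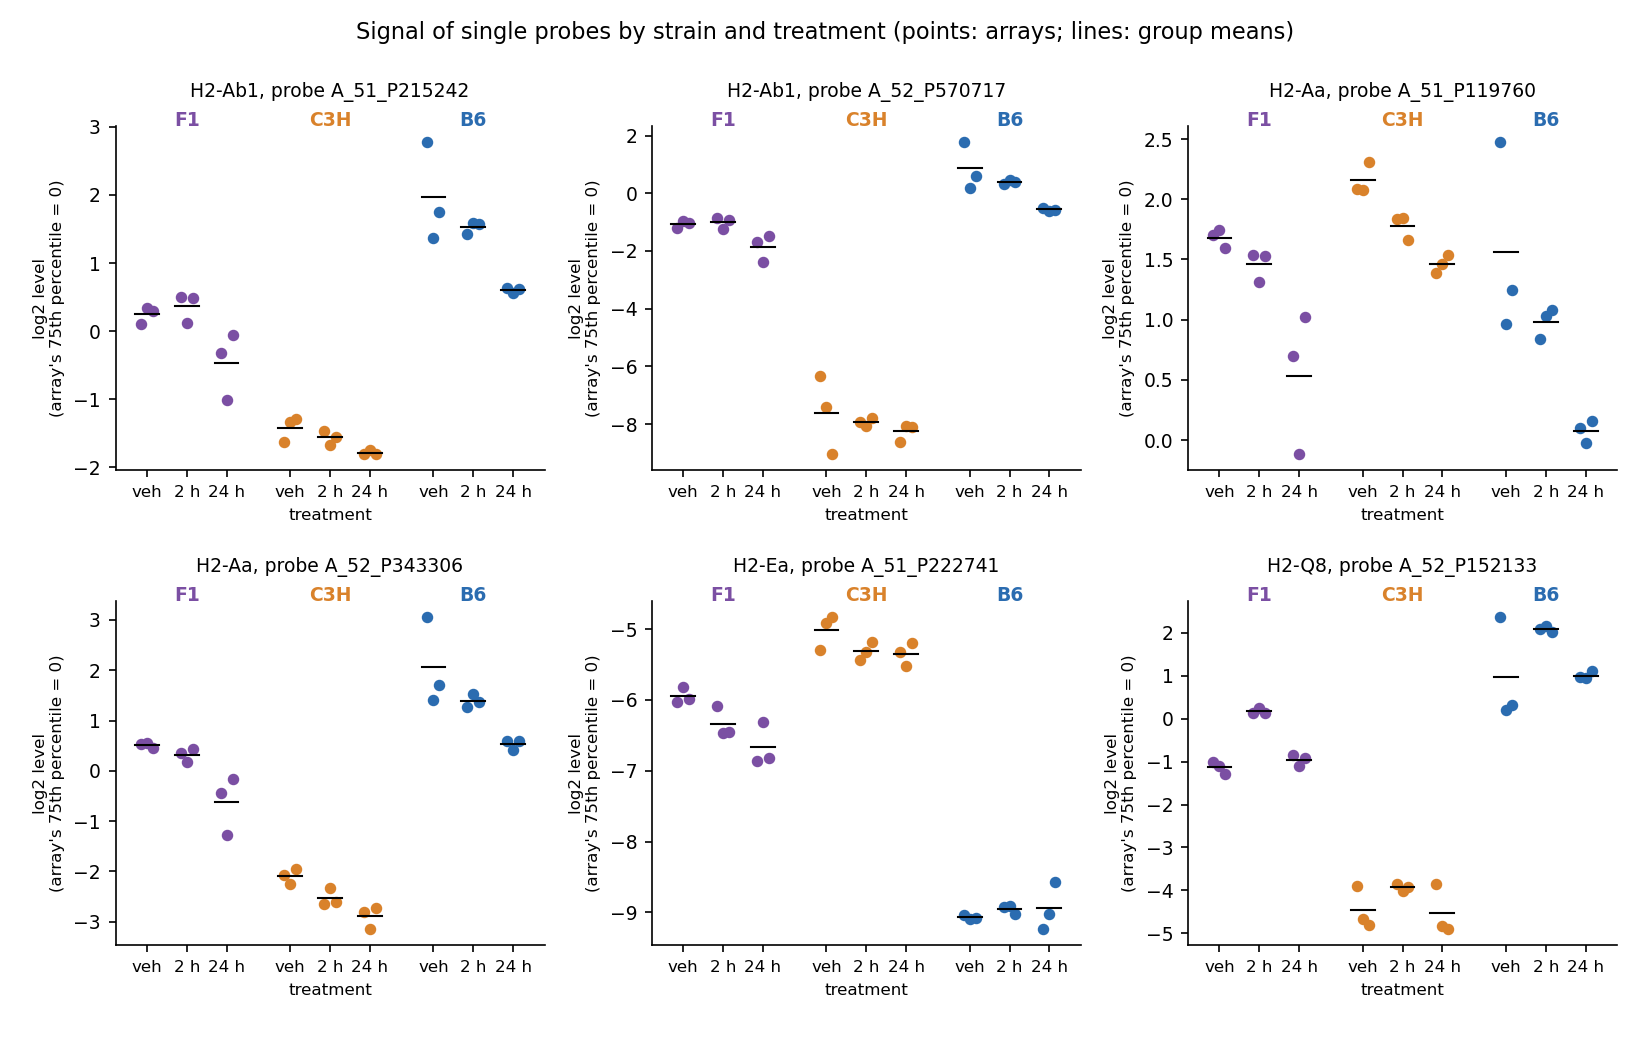
Log2 level of 6 probes on each of 27 arrays by strain (F1, C3H, B6) and treatment (vehicle, E2 2 h, E2 24 h); each point is 1 array. The H2-Aa probes A_51_P119760 and A_52_P343306 place C3H above and below B6, and H2-Ab1 probe A_52_P570717 is lowest in C3H, at −6.34 to −9.05 in vehicle.

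Of the class I heavy chain genes, C3H minus B6 over treatments called 0 higher and 3 lower of the 3 K and D genes, 0 and 5 of the 6 Q region genes, 1 and 1 of the 5 T region genes and 0 and 0 of the 2 M region genes, or 1 and 0 of these 2 without B6 vehicle replicate 1. Of all genes, 40.6% were called in this comparison, or 41.3% without that array. The higher T region gene was H2-T24 (0.70, or 0.80 without that array), which was chosen after its values were seen. Its 2 probes gave 0.23 and 0.70 with all arrays. In vehicle alone H2-T24 differed by 0.45, and by −0.39 with slide as a block (limma adjusted p = 0.69). H2-Q8, a Q region gene, stood at −1.01, −1.09 and −1.28 in F1 vehicle uteri and −3.91, −4.66 and −4.81 in C3H, against 2.38, 0.21 and 0.32 in B6. H2-Bl, a class I gene first described in blastocysts, stood at −1.28, −1.09 and −1.20 in F1 and −3.65, −3.50 and −3.65 in C3H, against 1.34, 0.23 and 0.28 in B6. Both were therefore lowest in C3H on every array, with F1 between the parents. As means over treatments without B6 vehicle replicate 1, C3H minus B6 was −5.43 for H2-Q8 (SE 0.13) and −3.80 for H2-Bl (SE 0.05), beside −5.67 and −3.92 with all arrays. The second H2-Bl probe, A_51_P247114, gave 0.87 in the same fit and was not well above background on any F1 array. In B6 it was well above background on 1 array in vehicle, 1 at 2 h and 0 at 24 h. Only in C3H at 2 h did it clear the background on all 3 arrays, so its value rests on levels near the background. The third H2-Bl probe, A_52_P560113, was not tested, so no other probe of this gene gives a second measure. H2-Q1 differed by −1.23 on its brightest probe (−1.35 with all arrays) and −0.27 on A_51_P425048. On A_52_P231729 the fitted difference was −5.54 with C3H near the background, and C3H vehicle uteri were at least 21.6-fold lower than B6.

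The classical genes gave smaller differences. H2-K1, a classical heavy chain gene, stood at 5.37, 5.32 and 5.20 in F1 vehicle uteri and 5.11, 5.15 and 5.20 in C3H, against 7.002, 5.72 and 5.73 in B6. C3H minus B6 was −0.67 without B6 vehicle replicate 1 (SE 0.04, limma adjusted p = 2e-11) and −0.82 with all arrays, but its other probes gave −0.32 on A_52_P474242 and 0.48 on A_52_P50496. H2-D1, the other classical gene, was lower in C3H by −0.59 in the same fit (SE 0.04, adjusted p = 1.1e-10) and by −0.71 with all arrays.

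Of the class I loading genes, Tap1 was lower in C3H by −0.80 with all arrays and −0.58 without B6 vehicle replicate 1 (SE 0.06, limma adjusted p = 1.1e-07). In the fit without that array Tapbp was lower in C3H (−0.28) and Tap2 higher (0.17, adjusted p = 0.0016). The light chain gene B2m was higher in C3H by 0.37 on its brightest probe (adjusted p = 7.5e-05), with 0.66 and −0.20 on its other probes. H2-T23, which encodes Qa-1, differed by −0.09 (adjusted p = 0.060) and was not called. With all arrays the differences were −0.38 for Tapbp (adjusted p = 0.0017), which was called, and 0.08 for Tap2 (0.50), 0.23 for B2m (0.14) and −0.23 for H2-T23 (0.11), which were not.

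F1 mice carry 1 copy of each haplotype, so the midpoint between the parents is the natural mark for their level. Against that midpoint on the log2 scale, F1 gave 4 members higher and 3 lower of 33, beside 19.4% called of all genes. With median centring they were 4 higher and 1 lower. The 4 were H2-Q8 (0.84), H2-Bl (0.52), H2-Ke6 (0.11) and H2-Ea, whose midpoint and call rest on B6 levels that were not above background on any array, and the 3 were Cd74 (−0.35), H2-Oa (−0.36) and B2m (−0.33). Leaving out the same B6 array gave 4 higher and 15 lower, beside 21.9%. A log2 midpoint lies below the mean of unequal parents, so the genes with large strain differences were also set on the linear scale.

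On the linear scale, H2-Q8 signal in F1 was 26.4% of that in B6 at 2 h and 25.7% at 24 h, which is 52.1% and 50.3% of the mean of both parents. H2-Ab1 on probe A_52_P570717 reached 38.3% of B6 at 2 h and 42.3% at 24 h, and on A_52_P683598 it reached 58.4% and 60.2%. H2-Aa on A_52_P343306 reached 47.5% and 47.2% of B6, and H2-Bl 38.8% and 45.3%. H2-Ea in F1 was 97.9% of the parents' mean in vehicle, 91.8% at 2 h and 75.1% at 24 h, with B6 below background. F1 thus lay below its brighter parent for each of these genes, and lowest, in percent of B6, for H2-Q8.

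The second question is what E2 did to the members within each strain. The 2 h and 24 h comparisons of a strain share its vehicle arrays. Counts of called members at 2 h were 1 higher and 3 lower in F1 (59.8% of all genes called), 0 and 2 in C3H (61%) and 1 and 9 in B6 (56.7%). With B6 vehicle replicate 1 left out, they were 2 higher and 6 lower in F1 (61.3%), 2 and 7 in C3H (62.7%) and 3 and 4 in B6 (53.8%). In F1 the split turned to 2 higher and 0 lower with median centring and to 3 and 0 without scaling.

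H2-M3, a class I gene whose product presents N-formylated peptides, fell at 2 h in all 3 strains. After 2 h of E2 it stood at 0.10, −0.10 and −0.11 in F1, against 0.68, 0.57 and 0.63 in F1 vehicle uteri. In C3H it stood at 0.27, 0.05 and −0.07, against 0.81, 0.81 and 0.80 in vehicle. In B6 it stood at 0.09, 0.18 and −0.03, against 1.93, 0.56 and 0.60 in vehicle. All E2 2 h arrays lay below all vehicle arrays of their strain. The differences were −0.67 in F1, −0.73 in C3H and −0.95 in B6 (SE 0.22, limma adjusted p = 0.012, 0.0066 and 0.00083), and −0.50 in B6 without vehicle replicate 1. With slide as a block, F1 gave −0.67 (adjusted p = 0.12) and lost the call, and B6 gave −0.94 (0.034). H2-Ke6, a steroid and fatty acid dehydrogenase gene of the H2 region that has no role in antigen presentation, also fell in F1 (−0.25), C3H (−0.26) and B6 (−0.32). Without scaling, H2-Ke6 in F1 stood at 0.0020.

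Tap1 lay lower at 2 h in each strain, and its calls depended on the 1 array. It stood at −2.28, −2.30 and −2.17 in F1 E2 2 h uteri, against −1.67, −1.50 and −1.59 in F1 vehicle uteri. In B6 it stood at −1.48, −1.56 and −1.36 at 2 h, against 0.98, −1.03 and −1.001 in vehicle. With all arrays the differences were −0.66 in F1, −0.51 in C3H and −1.12 in B6, called in B6 alone (limma adjusted p = 0.076, 0.17 and 0.0045). Fitted without B6 vehicle replicate 1, they were −0.66, −0.51 and −0.45, called in each (adjusted p = 7.7e-06, 0.00015 and 0.0017).

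H2-Q8 rose at 2 h in F1 (1.31, SE 0.38, limma adjusted p = 0.0054) and B6 (1.13, adjusted p = 0.015), with 0.53 in C3H (adjusted p = 0.24). Its B6 levels at 2 h were 2.10, 2.17 and 2.03, against 2.38, 0.21 and 0.32 in B6 vehicle uteri. With slide as a block the differences were 1.46 in F1 (adjusted p = 0.036) and 1.13 in B6 (0.11), which lost the call. In the fit without B6 vehicle replicate 1 the rise was 1.84 in B6 and was called in C3H too (adjusted p = 0.040). Called in the same direction in all 3 strains at 2 h were H2-Ke6 and H2-M3, both lower, beside 28.2% of all genes called lower in all 3. With median centring and with the unscaled values, 0 members were called lower in F1 at 2 h. Neither gene was then called in all 3 strains. Without that array, H2-T22 and Tap1 were added among the lower (28.1%) and H2-Q8 among the higher (17.7%).

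Of the 4 class II chain genes and 7 class II loading and regulation genes, H2-Ea in F1 (−0.39, limma adjusted p = 0.046) and H2-Ob in B6 (−0.52, adjusted p = 0.035) were called with all arrays. Of the F1 arrays, 1 of 3 at 2 h was well above background for H2-Ea, against 3 of 3 in vehicle, and H2-Ob in B6 lost the call with slide as a block (−0.59, adjusted p = 0.14). When B6 vehicle replicate 1 was left out, 0 of the 11 were called in any strain. Of all genes, 61.3% were called in F1, 62.7% in C3H and 53.8% in B6 in that fit. With all arrays these shares were 59.8%, 61% and 56.7%.

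At 24 h the members called were 5 higher and 8 lower in F1 (68.5% of all genes called), 3 and 6 in C3H (67.3%) and 2 and 21 in B6 (68%). With B6 vehicle replicate 1 left out, they were 7 and 12 in F1 (69.7%), 5 and 12 in C3H (68.4%) and 5 and 17 in B6 (67.2%). Median centring gave 8 higher and 7 lower in F1 and 4 and 4 in C3H, and the unscaled values gave 7 and 7 in F1 and 4 and 4 in C3H. Their median difference was 0.01 in F1 (all genes −0.04), −0.07 in C3H (−0.16) and −0.58 in B6 (−0.06), or −0.17 in B6 without that array. With all arrays the 4 class II chain genes gave 0 higher and 4 lower in F1, 0 and 2 in C3H and 0 and 3 in B6, and the 7 class II loading and regulation genes 0 and 4, 0 and 3, and 0 and 7. Members of other roles were called lower too, 11 of them in B6.

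H2-Eb1 fell in every strain. Its levels at vehicle, 2 h and 24 h were 2.32, 2.30 and 2.20, then 2.16, 1.77 and 2.13, then 1.11, 0.58 and 1.38 in F1. In C3H they were 1.94, 2.04 and 2.23, then 2.00, 1.85 and 1.88, then 1.29, 1.23 and 1.26. In B6 they were 3.94, 2.59 and 2.72, then 2.50, 2.64 and 2.62, then 1.46, 1.46 and 1.44. In each strain the 24 h arrays lay below all vehicle and 2 h arrays, and in F1 the 24 h replicate 2 lay lowest, as it did for H2-Aa and Cd74. The 24 h differences were −1.25 in F1, −0.81 in C3H and −1.63 in B6 (SE 0.24, limma adjusted p = 8.6e-05, 0.0050 and 3.2e-06), and −1.20 in B6 without vehicle replicate 1.

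H2-Aa moved the same way. After 24 h of E2 it stood at 0.69, −0.12 and 1.02 in F1, against 1.70, 1.74 and 1.59 in F1 vehicle uteri, and at 0.10, −0.02 and 0.16 in B6, against 2.48, 0.97 and 1.25 in vehicle. Its differences were −1.15 in F1, −0.69 in C3H and −1.49 in B6 (SE 0.27, limma adjusted p = 0.00081, 0.028 and 5.4e-05). When B6 vehicle replicate 1 was left out, the B6 value was −1.03, and the probes A_51_P119760 and A_52_P343306, opposed in the strain comparison, gave −1.15 and −1.14 in F1, −0.69 and −0.80 in C3H and −1.03 and −1.03 in B6. H2-Ab1 was called in F1 (−0.83) and B6 (−1.33) with all arrays and stood at −0.52 in C3H (adjusted p = 0.067). Without that array it was called in all 3 (−0.83, −0.52 and −0.91), and its 4 probes ranged from −0.71 to −0.83 in F1, −0.28 to −0.65 in C3H and −0.91 to −1.05 in B6. The −0.65 in C3H was that of A_52_P570717, well above background on 1 C3H vehicle array and on 0 at 24 h.

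H2-Ea, measurable in the carriers of haplotype k, stood at −6.86, −6.31 and −6.82 in F1 at 24 h, against −6.03, −5.82 and −5.99 in F1 vehicle uteri. The fall in F1 was −0.71 (SE 0.16, limma adjusted p = 0.00059), and 1 of the 3 F1 arrays at 24 h was well above background. In C3H the difference was −0.34 (adjusted p = 0.073) and was not called.

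Of the class II loading and regulation genes, Cd74 stood at 2.58, 2.01 and 2.75 in F1 at 24 h, against 3.56, 3.36 and 3.36 in vehicle, and at 3.10, 2.90 and 3.02 in C3H, against 3.36, 3.65 and 3.69. In B6 it stood at 2.73, 2.62 and 2.56, against 4.84, 3.55 and 3.79 in vehicle. No 24 h array reached a vehicle array of its strain. The differences were −0.98 in F1, −0.56 in C3H and −1.42 in B6 (SE 0.22, limma adjusted p = 0.00064, 0.033 and 1e-05), and −1.03 in B6 without vehicle replicate 1.

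The H2-DO chain genes fell in every strain: H2-Oa by −0.996 in F1, −0.94 in C3H and −1.35 in B6 (SE 0.16), and H2-Ob by −1.18, −0.87 and −1.47 (SE 0.20). In B6 without vehicle replicate 1 they were −1.10 and −1.29. The largest limma adjusted p of these 6 was 0.0009. Ciita fell in F1 (−0.87, SE 0.34, adjusted p = 0.029) and B6 (−1.51, adjusted p = 0.00052, or −1.003 without that array) and stood at −0.52 in C3H (adjusted p = 0.19). H2-DMa was called in B6 with all arrays (−1.15, adjusted p = 0.0016) and stood at −0.39 in F1 (0.24) and 0.12 in C3H (0.72). Without B6 vehicle replicate 1, H2-DMa was called in F1 (−0.39) and B6 (−0.55), and the other H2-DM chain gene H2-DMb1 in F1 (−0.26) and B6 (−0.32). In that fit the 7 loading and regulation genes gave 0 higher and 6 lower in F1, 0 and 3 in C3H and 0 and 7 in B6, and the 4 chain genes gave 0 higher and 4 lower, 0 and 3, and 0 and 3. Beside these, 69.7%, 68.4% and 67.2% of all genes were called in either direction in F1, C3H and B6.

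**Figure D3:**
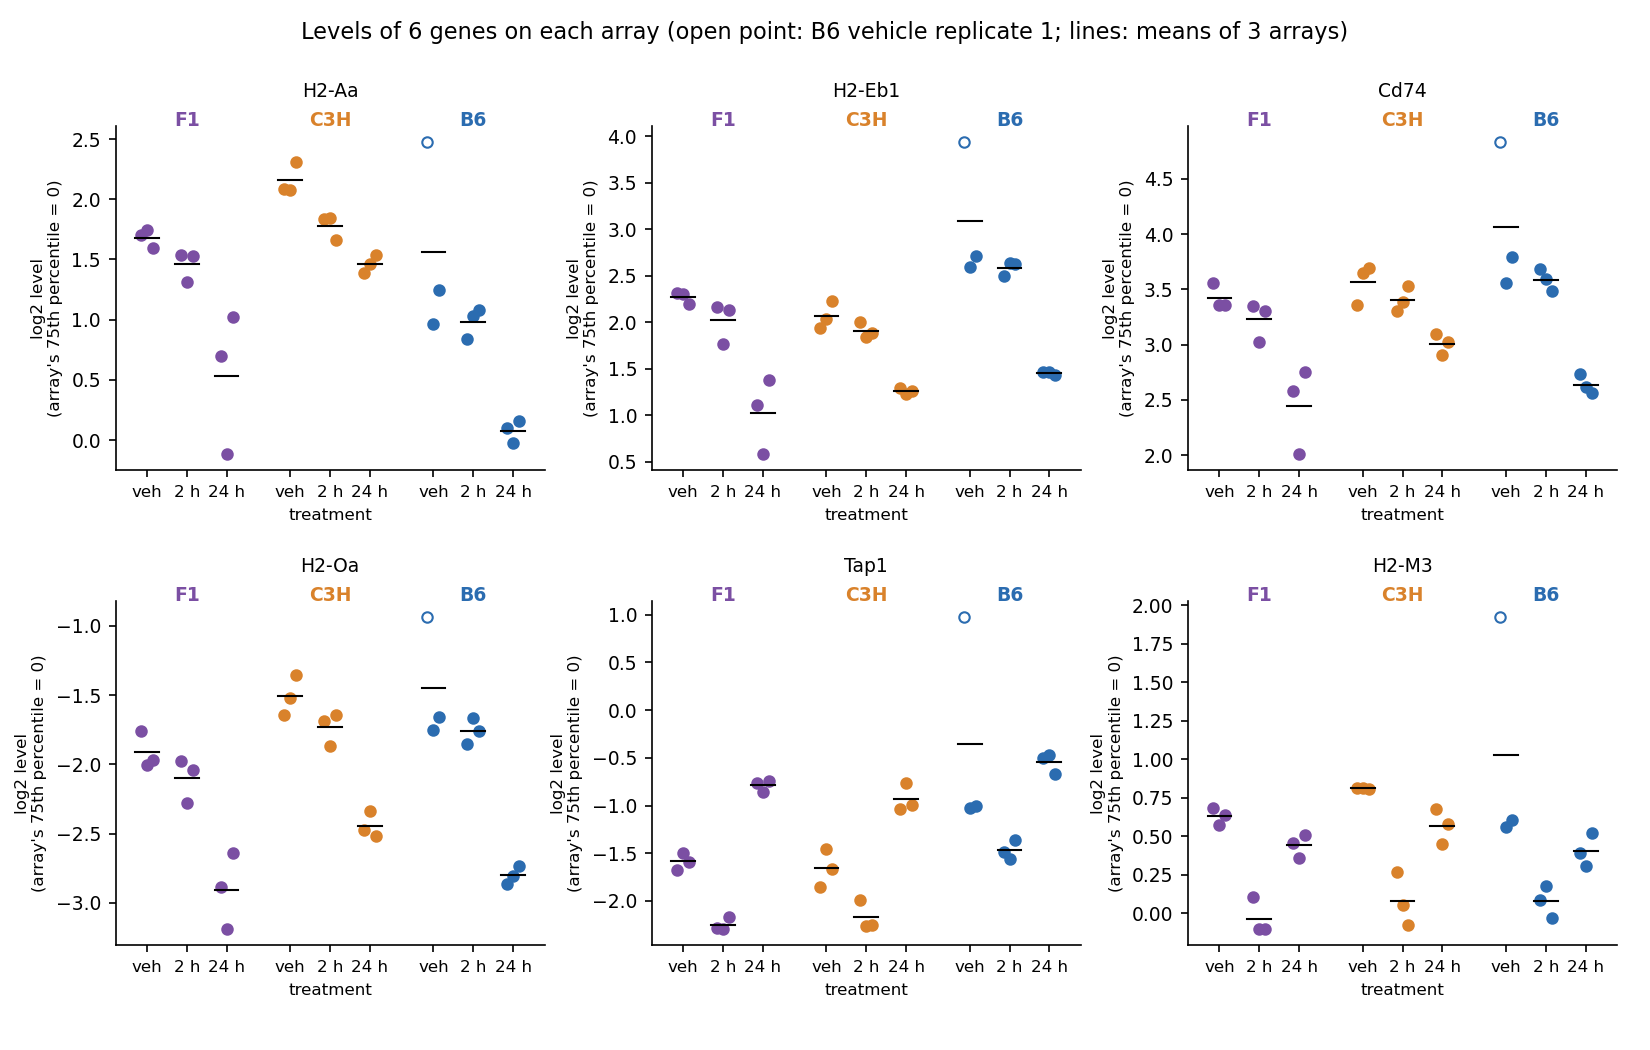
Log2 level of 6 genes on each array by strain and treatment (vehicle, E2 2 h, E2 24 h); the open point is B6 vehicle replicate 1. H2-Aa, H2-Eb1, Cd74 and H2-Oa are lowest at 24 h, whereas H2-M3 is lowest at 2 h and Tap1 is lowest at 2 h and highest at 24 h, apart from the open point.

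Of the class I heavy chain genes, H2-K1 differed by −0.02 in F1, 0.00 in C3H and −0.36 in B6, and by 0.07 in B6 without vehicle replicate 1, called in none of these. H2-D1 differed by 0.14, −0.01 and −0.33, and by 0.02 in B6 without that array. The 3 genes of the K and D region gave 1 higher and 0 lower in F1, 1 and 0 in C3H and 0 and 0 in B6 in the fit without it. H2-T23 was lower in B6 (−0.90, limma adjusted p = 0.00037) and not called in F1 (−0.07) or C3H (−0.25). Without that array it stood at −0.07, −0.25 and −0.48, called in C3H and B6. H2-T22, a T region gene outside the naming rule that was chosen after its values were seen, was higher in F1 (0.56), C3H (0.38) and B6 (0.40) in that fit.

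Tap1 lay higher at 24 h, the reverse of its direction at 2 h. It stood at −0.76, −0.85 and −0.74 in F1 at 24 h, against −1.67, −1.50 and −1.59 in vehicle. In C3H it stood at −1.04, −0.77 and −0.996, against −1.86, −1.45 and −1.66. In B6 it stood at −0.51, −0.47 and −0.67, against 0.98, −1.03 and −1.001 in vehicle. The 24 h arrays lay above every vehicle array of their strain except B6 vehicle replicate 1. The differences were 0.80 in F1, 0.72 in C3H (SE 0.31, limma adjusted p = 0.029 and 0.047) and −0.20 in B6 (adjusted p = 0.59). Without that array B6 gave 0.47 (adjusted p = 0.00090), so the direction in B6 rests on it.

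The other class I loading genes gave different values. Tap2, in the same fit without B6 vehicle replicate 1, fell in F1 (−0.31), C3H (−0.27) and B6 (−0.50, limma adjusted p = 6.8e-06). B2m fell in F1 (−0.30) and B6 (−0.32, adjusted p = 0.020) and stood at −0.12 in C3H. Tapbp stood at 0.01, 0.02 and −0.17, called in B6 alone. With all arrays these 3 were called in B6 alone, with −0.79 for Tap2, −0.73 for B2m and −0.49 for Tapbp. These are values of the brightest probe of each gene. With all arrays the 3 B2m probes ranged from −0.86 to −0.26 in F1, −0.85 to −0.12 in C3H and −1.57 to −0.59 in B6. The 2 Tapbp probes ranged from 0.01 to 0.34, 0.02 to 0.42 and −0.61 to −0.49. The H2 region genes outside antigen presentation both rose: H2-Ke6 by 0.42 in F1, 0.38 in C3H and 0.24 in B6, and Pfdn6, a subunit of the prefoldin chaperone, by 0.53, 0.26 and 0.85 (SE 0.07), with all arrays.

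Called in the same direction in all 3 strains at 24 h were Cd74, H2-Aa, H2-Eb1, H2-Oa and H2-Ob, all lower (29.2% of all genes), and H2-Ke6 and Pfdn6, both higher (22.9%). With median centring and with the unscaled values, 4 members were called lower in C3H. Not every one of these lower genes was then called in all 3 strains. Without B6 vehicle replicate 1, H2-Ab1 and Tap2 joined the lower (29.5%) and H2-T22 and Tap1 the higher (23%).

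**Figure D4:**
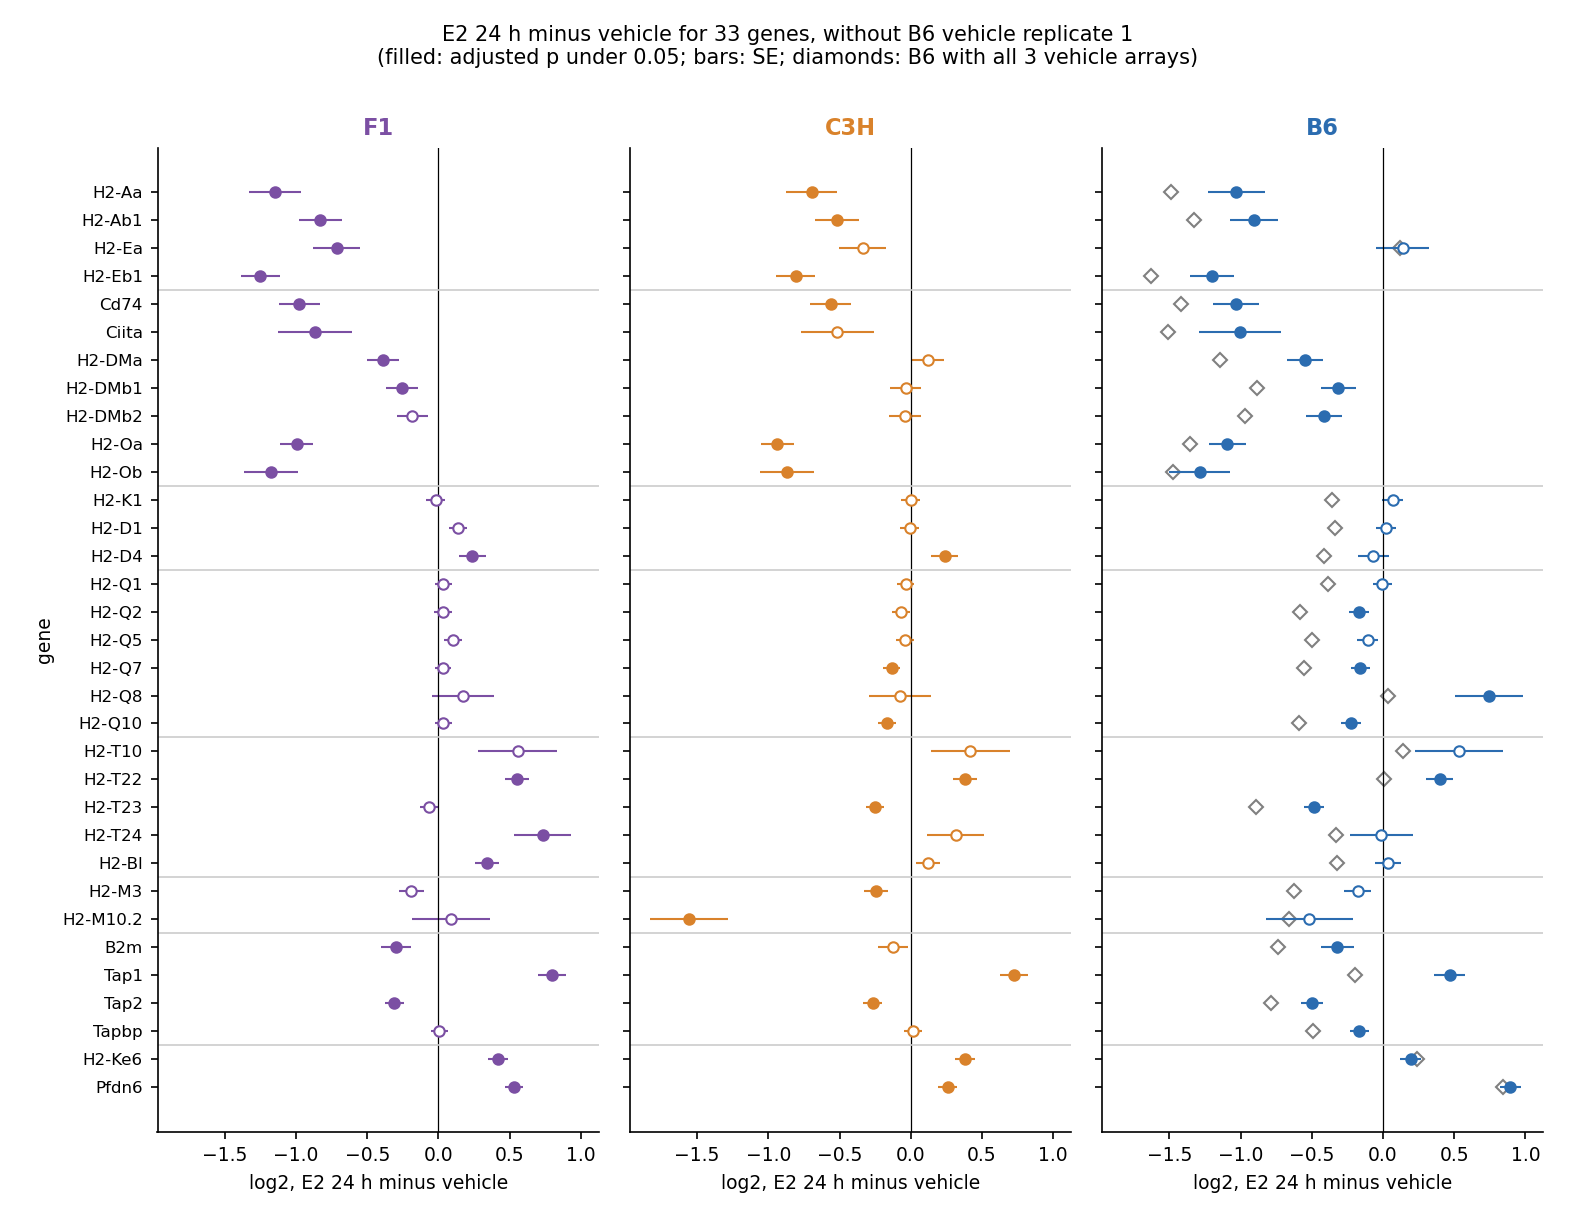
Log2 difference, E2 24 h minus vehicle, of the 33 tested genes in F1, C3H and B6, with SE bars, fitted without B6 vehicle replicate 1; open diamonds in the B6 panel give the value with all 3 vehicle arrays. Class II genes lie left of 0, as with H2-Eb1 at −1.25, −0.81 and −1.20, except for H2-DMa in C3H (0.12) and H2-Ea in B6 (0.14, not above background), neither of them called, and Pfdn6, Tap1 and H2-Ke6 lie right of 0.

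The slide on which an array lay could be weighed only in part. At 24 h in F1 and C3H, and at 2 h in C3H, no fit with slide as a term could be had that gives the E2 effect, so slide and treatment cannot be told apart there. Between strains such a fit could be had for C3H minus B6 in vehicle and for F1 minus C3H at 2 h alone. For C3H minus B6 in vehicle, with all arrays, it called H2-Ea, H2-Q1, H2-Q8 and H2-Bl. The others were not called, among them H2-Ab1 (−2.01, limma adjusted p = 0.066), H2-K1 (−1.23, 0.18), H2-D1 (−0.93, 0.24), H2-Eb1 (−1.12, 0.32) and Tap1 (−1.15, 0.46). At 24 h in B6 such a fit, with B6 vehicle replicate 1 included, gave −1.74 for H2-Aa, −1.43 for H2-Ab1, −1.75 for H2-Eb1, −1.24 for Cd74, −1.77 for Ciita, −1.53 for H2-Oa and −1.64 for H2-Ob. Each of these was called (largest limma adjusted p = 0.044), while H2-DMa (−1.12), H2-T23 (−0.88) and B2m (−0.48) were not. The B6 vehicle arrays lay on slide 3 and the B6 24 h arrays on slides 4 and 5. No slide held both, so the fit compares them through arrays of other groups. Within slide 3, E2 2 h minus vehicle in B6 (1 array against 3) had a member median of −0.39, beside −0.11 over all genes. Within slide 1, the same in F1 (3 arrays against 1) had −0.11, beside −0.15.

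The design also asks whether the response to E2 differed between strains. At 2 h, 0 members were called by limma in any of the 3 pairs of strains, with 2.26% (C3H minus B6), 0.64% (F1 minus B6) and 0.224% (F1 minus C3H) of all genes called. At an unadjusted p under 0.05 there were 1, 2 and 0 members. At 24 h, C3H minus B6 gave 1 member higher and 1 lower (18.9% of all genes), F1 minus B6 gave 0 (2.04%) and F1 minus C3H gave 1 higher (3.82%). At an unadjusted p under 0.05 these were 13, 13 and 2 members, or 9, 12 and 5 without B6 vehicle replicate 1. H2-DMa responded by 0.12 in C3H and −1.15 in B6, a difference of 1.27 (SE 0.41, limma adjusted p = 0.036), and of 0.67 without B6 vehicle replicate 1 (adjusted p = 0.0088). Pfdn6 rose by 0.26 in C3H and 0.85 in B6, a difference of −0.59 (SE 0.10, adjusted p = 0.00037). H2-M10.2, one of the M10 class Ib genes, responded by 0.09 in F1 and −1.56 in C3H, a difference of 1.65 (SE 0.39, adjusted p = 0.025), which turned to −0.30 with normexp background (adjusted p = 0.83). None of the 4 class II chain genes was called in these 6 differences, which does not show that the strains responded alike.

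Genes with several probes also show how far the probes of one gene disagree. Probes were assigned to a gene by the name or accession in the array files, and 4 passing probes of members list more than 1 RefSeq gene. Others list 0, among them A_52_P570717 of H2-Ab1, each H2-K1 probe, A_52_P582814 and A_52_P231729 of H2-Q1 and A_52_P105594 of B2m. Whether such probes measure the gene they are named for was not tested. The values are from the fit without B6 vehicle replicate 1 and carry no test. For 13 members with at least 2 tested probes, the range of C3H minus B6 between the probes of a gene had a median of 0.859 log2 units, beside 0.161 over 7487 genes with several probes. It passed 1 log2 unit in 6 of the 13, beside 7.47% of the 7487. The widest range was 6.60 in H2-Ab1, which rests on the probe with C3H near the background. For F1 minus B6 the median range was 0.529, beside 0.172. In the E2 comparisons at 24 h the median range was 0.243 in F1 (0.476 over all such genes), 0.349 in C3H (0.426) and 0.384 in B6 (0.475). It passed 1 log2 unit in 0, 1 and 2 of the 13 members (23.4%, 18.6% and 25.2% of all such genes). At 2 h the medians were 0.150 in F1, 0.095 in C3H and 0.101 in B6, beside 0.295, 0.314 and 0.250. With the B6 array included, the largest move among these members' medians was that of B6 at 24 h, to 0.159. Over probes well above background on every array compared, a choice made after seeing the data, 11 members had several probes for C3H minus B6, with a median range of 0.721 (0.140 over all such genes) and the widest, 4.74, in H2-Aa. The medians at 24 h were then 0.191 in F1, 0.217 in C3H and 0.261 in B6, beside 0.426, 0.399 and 0.422.

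**Figure D5:**
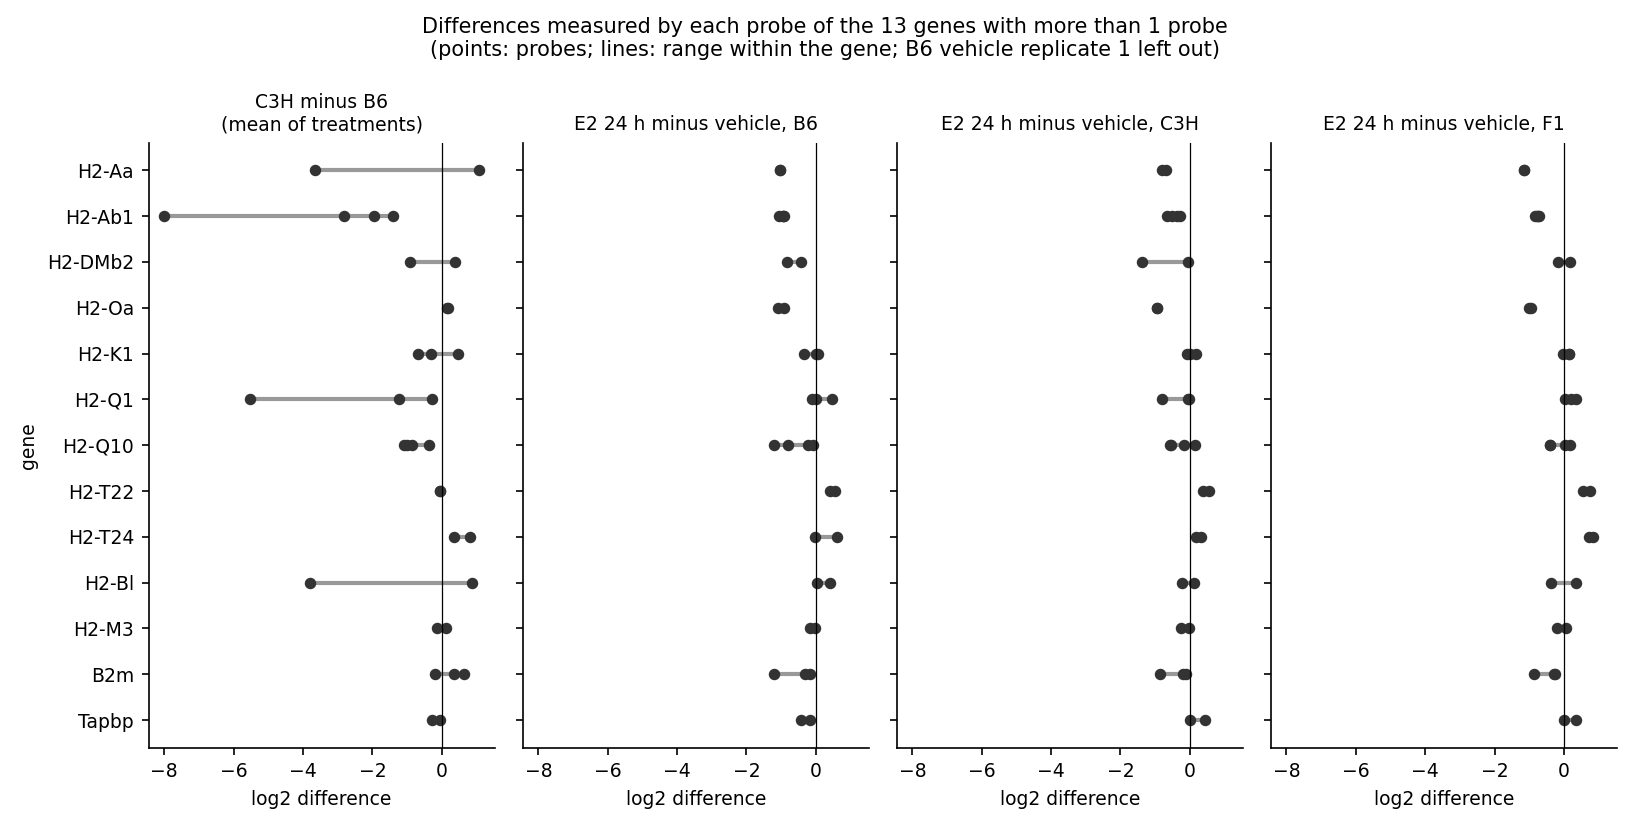
Log2 difference on each tested probe of the 13 genes with several probes, for C3H minus B6 (mean over treatments) and for E2 24 h minus vehicle in F1, C3H and B6, fitted without B6 vehicle replicate 1; a line joins the probes of a gene. The H2-Ab1 probes span −8.00 to −1.40 in the strain comparison, the lower value with C3H near the background, and −1.05 to −0.91 in the E2 comparison in B6.

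Other genes of antigen presentation gave the setting for the members at 24 h. Of 16 measured class I loading and processing genes outside the members, 8 were higher and 4 lower in F1, 8 and 4 in C3H and 6 and 5 in B6. With B6 vehicle replicate 1 left out, these were 10 and 4, 9 and 4, and 9 and 5. The B6 median was then 0.49, against −0.0013 with all arrays. Calr, the calreticulin gene of the class I loading complex, rose by 1.61 in F1, 1.58 in C3H and 2.06 in B6. Its partner Pdia3 rose by 1.20 as the mean of strains and the chaperone gene Hspa5 by 1.17, while Cd1d1, which presents lipids, fell by 1.49. Of 20 class II regulation and processing genes, 7 were higher and 4 lower in F1, 5 and 4 in C3H and 3 and 8 in B6. These counts include B6 vehicle replicate 1. Cd83, a surface protein that stabilises class II on dendritic cells, fell by 2.92 in F1, 3.08 in C3H and 3.63 in B6. It had already fallen at 2 h (−2.39, −2.34 and −2.08). The costimulatory gene Cd40 fell at 2 h too (−0.86 as the mean of strains), and the Y box factor genes Nfya (0.85) and Nfyc (0.57) rose.

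Whole uterus holds many cell types, and fewer cells of a type cannot be told apart from less RNA per cell. At 24 h, 68.5% of all genes were called in F1, 67.3% in C3H and 68% in B6, in either direction. Of 10 dendritic cell markers, 1 was higher and 5 lower in F1 (median −0.75), 0 and 7 in C3H (−0.66) and 0 and 7 in B6 (−1.15, or 0 and 6 with −0.89 without vehicle replicate 1). Siglech, a plasmacytoid dendritic cell gene, differed by −2.45 in F1, −1.54 in C3H and −2.16 in B6, the migratory marker Ccr7 by −1.31, −1.78 and −2.25, and the dendritic transcription factor gene Zbtb46 by −0.87, −1.10 and −0.92, all called. The summed signal of the 10 markers, in units of the array's 75th percentile, ran from 1.81 to 2.91 in F1 at 24 h, against 3.75 to 4.85 in F1 vehicle. It ran from 3.08 to 3.44 in C3H, against 4.49 to 5.95 in vehicle, and from 2.45 to 2.58 in B6, against 4.33 to 7.92. In F1 at 24 h, 1 of the 10 was not well above background, and in the other groups 0 were. The part of the markers' cells in the class II values was not tested.

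Markers of other cell types were counted likewise, with B6 vehicle replicate 1 included unless stated. Of 7 NK cell markers at 24 h, 6 were lower in F1, 4 in C3H and 7 in B6 (medians −1.12, −0.83 and −1.64), with 0 higher in any strain. Of 14 macrophage and monocyte markers, 4 were higher and 1 lower in F1, 6 and 1 in C3H and 1 and 5 in B6, or 2 and 3 in B6 without vehicle replicate 1. Their summed signal at 24 h overlapped that in vehicle in each strain, with 68.6 to 96.6 in F1, against 76.5 to 95.9, and 93.0 to 99.4 in C3H, against 79.5 to 99.8. B cell markers gave 1 higher and 3 lower of 8 in F1, 0 and 3 in C3H and 0 and 2 in B6. Of the 6 general leukocyte genes, 0 were called in F1 and C3H and 1 was lower in B6. Of 8 T cell markers, 1 was higher and 2 lower in F1 (median 0.02), 1 and 3 in C3H (−0.66) and 1 and 2 in B6 (−0.46). Of 8 neutrophil and eosinophil markers, 2 were higher and 1 lower in F1 (0.55), 2 and 1 in C3H (1.07) and 1 and 2 in B6 (−0.06). Endothelial markers gave 0 higher and 5 lower of 6 in F1 (−0.44), 0 and 3 in C3H (−0.26) and 0 and 5 in B6 (−0.48). Of 15 uterine genes, 8 were higher and 6 lower in F1, 7 and 7 in C3H and 8 and 6 in B6. The part of these cell types in the members' values was not tested.

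Interferon-induced genes were set beside Tap1. Of 28 measured, 3 were higher and 7 lower at 2 h in F1 (median −0.15), 2 and 8 in C3H (−0.28) and 1 and 15 in B6 (−0.78), or 6 and 10 (−0.26) in B6 without vehicle replicate 1. At 24 h, 19 were higher and 1 lower in F1 (median 1.05), 15 and 1 in C3H (0.58) and 7 and 1 in B6 (0.18), or 21 and 1 (0.72) in B6 without that array. The summed signal of the list at 24 h was 113.0 to 133.6 in F1, against 58.7 to 67.5 in vehicle, 104.0 to 108.4 in C3H, against 70.9 to 75.5, and 114.1 to 130.7 in B6, against 69.4 to 320.3, the highest being B6 vehicle replicate 1. Oas3, an antiviral oligoadenylate synthetase gene, rose at 24 h by 2.90 in F1, 2.25 in C3H and 1.81 in B6, and Mx1, a dynamin-like antiviral GTPase gene, by 1.87 as the mean of strains. Ifit3 fell at 2 h by 1.93 as the mean of strains and Rsad2 by 1.78. The median of the list had the sign of Tap1 at both times in F1 and C3H. Of other class I genes at 24 h in these 2 strains, H2-T22 had that sign too, while Tap2, B2m and H2-T23 had the opposite sign. In B6 with all arrays it was 0.18 at 24 h, with Tap1 at −0.20. Over all genes the median was −0.12 in F1 and −0.13 in C3H at 2 h, and −0.04 and −0.16 at 24 h. At 2 h Tap1 was called in neither F1 nor C3H with all arrays. The part of the list in the Tap1 result was not tested.

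The start regions of the genes were searched for the letters of 4 motifs, because class II and class I promoters are known for a Y box bound by NF-Y and class I promoters for an interferon response element. RefSeq promoters on GRCm38.p6 were at hand for 30 of the 42 members, with 34 promoters in all. None was at hand for H2-Ab1, H2-Ea, Cd74, Ciita or Tap2, among others. The 34 include those of H2-T3 and the M genes that were too dim to be tested, and overlapping starts of H2-K1, H2-M9 and Pfdn6. GATTGG on either strand, the Y box core ATTGG with a preceding G, stood in 26 of the 34, beside 16.1% of 32851 mouse promoters of the same length (250 bases before to 50 after the start). ATTGG alone stood in 29 of 34, beside 37.4%, and every GATTGG match is also an ATTGG match. TTTCNNTTTC, an interferon response core, stood in 3 of 34, those of B2m, H2-T23 and H2-T22, beside 3.44%. GGTCANNNTGACC, the palindromic estrogen response element, stood in 0 of 34, beside 0.0700%. The 150 bases before the start are printed for 3 members, as a class II α chain, a class II β chain and the class I light chain, with GATTGG or its complement CCAATC and the interferon core's complement GAAANNGAAA in capitals.
H2-Aa, chr17:34287824-34287973, minus strand: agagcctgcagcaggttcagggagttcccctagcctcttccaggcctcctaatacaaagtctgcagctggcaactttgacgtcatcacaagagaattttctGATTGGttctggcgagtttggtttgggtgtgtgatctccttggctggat
H2-Eb1, chr17:34305717-34305866, plus strand: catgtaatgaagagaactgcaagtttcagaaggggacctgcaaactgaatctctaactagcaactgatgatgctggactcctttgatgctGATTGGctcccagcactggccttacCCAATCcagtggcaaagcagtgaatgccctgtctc
B2m, chr2:122147537-122147686, plus strand: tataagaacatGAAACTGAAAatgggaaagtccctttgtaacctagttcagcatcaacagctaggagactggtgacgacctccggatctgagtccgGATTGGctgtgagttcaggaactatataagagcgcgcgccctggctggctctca
GATTGG stood in the printed bases of H2-Aa, H2-Eb1 and B2m alike. A match in these reference promoters is a description of the letters and no evidence of binding in these uteri.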

How the data were processed

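Total RNA of 27 uterus samples (500 ng each, Cy3) was measured on Agilent 1-colour arrays with Feature Extraction (9.5 per the submitters' processing notes). The deposited spot intensity, per the file headers, is a processed signal that was background-subtracted within each array and not scaled between arrays. From it, control and outlier spots were left out, spots of a probe averaged, and log2 signal minus each array's 75th percentile taken. Probes that cleared the background on every array of a group entered, with the brightest probe per gene. The design of 9 group means was fitted in limma 3.58.1 (lmFit and eBayes, in R 4.3.3 with package data.table at 1.17.8), and p-values were Benjamini-Hochberg adjusted over all genes of a contrast. Named members were those called for C3H minus B6 with a log2 difference of at least 1, those called one way in 3 strains or in a response difference, and a set of 16 core genes; of each pathway list, up to 5 shared genes. Members and lists were chosen with earlier results of these data known. The number of arrays limits the precision. Replicate numbers did not pair the samples (correlations of deviations −0.12 to 0.17). The fit was tested on simulated data. Alternatives covered scaling, background, probes, slide, the arrays fitted and each array left out.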

Additional observations from a re-analysis of the deposited data

Results flagged for a closer look

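Of the members, 3 differed between strains in their response to E2 at 24 h by a test of the difference itself, in the limma fit over all 27 arrays. H2-DMa differed by 1.27 (SE 0.41, adjusted p = 0.036) between C3H (0.12) and B6 (−1.15), was called in 28 of 39 alternatives and ranged from 0.67 to 1.64 over them. At 24 h its levels were −1.17, −1.23 and −1.31 in C3H, against −1.43, −1.39 and −1.26 in C3H vehicle, and −1.49, −1.58 and −1.66 in B6, against 0.77, −1.18 and −0.88 in B6 vehicle. Without the first of these B6 vehicle arrays the difference was 0.67 (SE 0.17, adjusted p = 0.0088). Pfdn6 differed by −0.59 (SE 0.10, adjusted p = 0.00037) between C3H (0.26) and B6 (0.85) and was called in 38 of 39 alternatives. Its levels at 24 h were 3.06, 3.11 and 3.21 in C3H, against 2.90, 2.79 and 2.91 in vehicle, and 3.76, 3.81 and 3.86 in B6, against 3.06, 2.87 and 2.96 in vehicle. H2-M10.2 differed by 1.65 (SE 0.39, adjusted p = 0.025) between F1 (0.09) and C3H (−1.56), was called in 31 of 39 alternatives and ranged from −0.30 (normexp background, adjusted p = 0.83) to 2.14 over them. Its C3H levels at 24 h were −3.92 on an array of slide 6 and −5.65 and −5.16 on arrays of slide 7, against −3.22, −3.44 and −3.40 in C3H vehicle. The part of the slide in this was not tested. Without B6 vehicle replicate 1, H2-Q8 at 2 h (C3H minus B6 −1.31, adjusted p = 0.044) and H2-T23 at 24 h (F1 minus B6 0.42, adjusted p = 0.033) were called as well. Groups of 3 arrays are too small for the test of single outlying samples.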

How the results depend on the processing

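Counts of called members are compared with those of the limma fit over all arrays, which were 18 (C3H minus B6, mean), 17 (vehicle), 21 (F1 minus B6) and 10 (F1 minus C3H) between strains, 10, 2 and 4 for E2 at 2 h in B6, C3H and F1, 23, 9 and 13 at 24 h, 7 for F1 against the midpoint, and 0 and 3 for response differences at 2 h and 24 h. Normexp background, which raised the median of 5 of 27 arrays more than the others, gave 11 (C3H minus B6, mean), 4 (vehicle), 5 (F1 minus B6), 2 (F1 minus C3H), 0 (midpoint), 2, 0 and 0 at 2 h in B6, C3H and F1, 11, 1 and 7 at 24 h, and 0 response differences at 24 h. Only the compared arrays gave 6 (C3H minus B6, vehicle), 20 (F1 minus C3H), 1, 7 and 8 at 2 h, 10 (B6) and 16 (C3H) at 24 h and 1 response difference. Slide as a fixed block gave 4 (C3H minus B6, vehicle), 2 (B6) and 2 (F1) at 2 h and 9 (B6) at 24 h. Median centring moved the median of all genes at 24 h to 0.19 in B6, 0.03 in C3H and 0.15 in F1, and gave 6, 1 and 2 at 2 h and 14 (B6) at 24 h. The unscaled value table gave 6 (B6) and 1 (C3H) at 2 h. Quantile normalization gave 19 (B6, 2 h) and 8 response differences. One row per probe gave 4 (C3H, 2 h), 14 (C3H, 24 h), 11 (midpoint) and 6 response differences. Leaving out the first replicates of B6 vehicle and of C3H at E2 2 h together, chosen after seeing the data, gave 18 (F1 minus C3H), 8 (C3H) and 9 (F1) at 2 h, 17 (C3H) at 24 h and 19 (midpoint). Leaving out 1 array gave ranges of 18 to 24, 14 to 21, 18 to 24 and 10 to 20 between strains, 7 to 25, 2 to 9 and 3 to 8 at 2 h, 20 to 27, 6 to 17 and 11 to 19 at 24 h, 4 to 19 for the midpoint, and 0 to 1 and 1 to 13 for response differences. The replicate block gave 12 (B6, 2 h), 22 (B6, 24 h), 8 (C3H, 24 h) and 4 response differences, and no count moved by over 1.5 times. Of named results, 6447 kept direction and call, 134 gained the call, 174 lost it and 16 reversed. Reversed were H2-Aa C3H minus B6 over the mean of its probes (−1.45) and on A_52_P343306 (−3.83), H2-K1 on A_52_P50496 (0.35), H2-Bl on A_51_P247114 (0.60), B2m on A_52_P105594 (−0.32), H2-M3 C3H minus B6 without B6 vehicle replicate 1 (0.13), H2-Ob with normexp at 2 h in B6 (0.12) and at 24 h in C3H (0.14), H2-Q1 at 2 h in C3H on A_52_P231729 (1.05) and H2-Ke6 at 2 h in F1 unscaled (0.0020). Without B6 vehicle replicate 1, alone or with the other array, H2-K1 (0.19) and H2-Q1 (0.18) at 2 h in B6 and Tap1 at 24 h in B6 (0.47) reversed too. The response difference of H2-M10.2 turned to −0.30 with normexp. Leaving out 1 array at a time ran from −0.45 to 0.19 for H2-K1, −0.40 to 0.18 for H2-Q1, −0.54 to 0.47 for Tap1 and −0.10 to 0.13 for H2-M3. The causes were not tested. H2-Aa, H2-Ab1, H2-Eb1, Cd74, Ciita, H2-Oa, Tap2 and Pfdn6 were called at 24 h in B6 in 40 of 40 settings.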

Other observations

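H2-T10, a T region class I gene chosen after its values were seen, stood at 3.39, 3.41 and 1.67 on the B6 E2 2 h arrays, against 4.64, 3.46 and 3.46 on the B6 vehicle arrays. The E2 2 h replicate 3 lay far below the other arrays of its group for this gene.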
